A study of Mus musculus with 4 samples.

Results

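The 7 genes that encode the cyclin-dependent kinase (CDK) inhibitor proteins of the mouse were described in an otic progenitor line and in neurons made from it. They are the CIP/KIP genes Cdkn1a (p21), Cdkn1b (p27) and Cdkn1c (p57), and the INK4 genes Cdkn2a (p16, and p19ARF from a second reading frame), Cdkn2b (p15), Cdkn2c (p18) and Cdkn2d (p19INK4d). They were chosen by gene symbol, and all 7 were among the 49997 symbols of the count tables. The line, iMOP, consists of immortalized multipotent otic progenitors and was made with a MYC transgene. Whether reads of the transgene enter the Myc row was not tested. All 4 libraries are labelled wild-type and come from this 1 line, so replicates are cultures of the same cells. There were 2 cultures of proliferating iMOP cells, called progenitors here, in DMEM/F12 with B27, carbenicillin and 20 ng/ml of basic FGF. A further 2 cultures were neurons, held in Neurobasal with N21, L-glutamine and 1 µM of K03861, and no basic FGF is listed for them. Progenitor and neuron cultures with the same replicate number are called pair 1 and pair 2. K03861 is an inhibitor of CDK2, so the medium, the growth factor and a drug against a target of these genes' products all differ between the groups and cannot be told apart.

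CIP/KIP proteins bind cyclin and kinase together and restrain mainly the CDK2 complexes, while INK4 proteins bind CDK4 and CDK6 and keep D-type cyclins off them. With the kinases held back, the retinoblastoma family stays bound to E2F factors and cells do not enter S phase. In the inner ear, p27 is the inhibitor best known for ending the divisions of progenitors, and p19INK4d is known for keeping hair cells from dividing again. Much of the control of p27 acts on the protein, through degradation, which RNA sequencing does not measure.

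The libraries were uneven. Total counts lay between 7446361 and 14484011, and the 18S ribosomal RNA row took 53.3% to 76.1% of them, which left 2595578 to 3850766 counts for everything else. Its share was near 75% in both replicate 2 libraries and under 60% in both replicate 1 libraries. Progenitor replicate 2 had the fewest genes with a count, 17762 against 20012 to 21637 in the other libraries. Of the marker genes, the glial list (7 genes, all with a count) summed to 165.4 and 120.3 CPM (counts scaled to a common library size) in progenitors and 72.9 and 25.2 in neurons. With the replicate number as a block in edgeR, 1 glial gene, Gfap, was called lower (181 and 89 counts against 1 and 2, adjusted p = 0.016; 0.11 without the block). The neuronal list (10 genes) summed to 149.8 and 327.6 CPM in progenitors and 194.8 and 337.3 in neurons, so its groups overlapped. Tubb3 alone gave 193.6 CPM of the sum in progenitor replicate 2. Of the 9 tested neuronal genes, 2 were higher in both neuron libraries, 0 were lower in both and 7 overlapped. The 2 were Elavl4 (7.56 and 12.2 against 17.7 and 38.0 CPM) and Map2 (93.9 and 92.3 against 121 and 141 CPM). Of all tested genes, 12.9% were separated in the higher direction, and 0 neuronal genes were called. The otic progenitor list (7 genes, 5 with a count) summed to 76.4 and 110.0 CPM in progenitors and 70.2 and 32.3 in neurons. Both neuron sums were thus below both progenitor sums. Sox2 and Sox9 were present in every library, whereas Pax2 and Pax8 had 0 counts in all 4. The 3 tested otic genes, Sox9, Sox2 and Eya1, had log2 fold changes of -1.66, -0.48 and 0.72, and 0 were called. Fibroblast markers summed to at most 1.22 CPM, blood and immune markers to at most 1.07 CPM and hair cell markers to 0.0841 to 9.68 CPM. The part of these differences in the results was not tested.

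The regions before the gene starts are shown for Cdkn1a and Cdkn1b, whose levels differed in opposite directions in both replicates. Each is the stretch of 250 bases before a RefSeq start in GRCm38.p6, the build of mm10, which the submitters' processing notes name. Cdkn1a has 2 such starts on chromosome 17. At the upstream start, chr17:29090729-29090978 on the plus strand, the capitals mark paired CATG cores of the kind found in p53 response elements. At the downstream start, chr17:29093519-29093768, they mark GC boxes, the sites of Sp1 factors. Cdkn1b has a single start on chromosome 6, and in chr6:134920151-134920400 on the plus strand the capitals mark CCAAT boxes and a GC box.
Cdkn1a, upstream start: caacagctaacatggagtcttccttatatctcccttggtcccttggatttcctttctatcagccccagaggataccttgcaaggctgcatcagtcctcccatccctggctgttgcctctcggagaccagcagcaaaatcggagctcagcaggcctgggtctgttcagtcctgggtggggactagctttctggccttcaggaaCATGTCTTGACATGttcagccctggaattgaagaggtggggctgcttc
Cdkn1a, downstream start: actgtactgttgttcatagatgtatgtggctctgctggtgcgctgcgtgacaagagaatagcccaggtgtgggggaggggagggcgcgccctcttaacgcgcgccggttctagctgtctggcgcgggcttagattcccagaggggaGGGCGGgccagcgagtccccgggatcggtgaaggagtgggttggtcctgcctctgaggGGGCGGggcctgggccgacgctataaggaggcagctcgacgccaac
Cdkn1b: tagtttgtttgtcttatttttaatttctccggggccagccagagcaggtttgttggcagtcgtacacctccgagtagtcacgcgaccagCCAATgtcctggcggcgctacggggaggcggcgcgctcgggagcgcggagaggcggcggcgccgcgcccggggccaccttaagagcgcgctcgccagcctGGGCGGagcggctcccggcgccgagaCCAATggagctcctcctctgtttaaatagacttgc
The p53-type pattern was searched as CATGNNNNNNCATG, which reads the same on both strands, and lies 48 to 35 bases before the upstream start of Cdkn1a. It occurs in 161 of 32851 windows of the same length (0.49%). GC boxes were searched as GGGCGG on both strands (32.7% of windows) and CCAAT boxes as CCAAT on both strands (33.8%). E-box (CACGTG, 6.02%), FOXO (GTAAACA, 3.17%) and E2F (TTTNNCGC, 4.28%) patterns were searched as well, and none was in the windows shown. The marked motifs do not overlap each other. Cdkn1b holds CCAAT 161 to 157 and 35 to 31 bases before its start, and GGGCGG 61 to 56 bases before it. Windows were found for 6 of the 7 genes, 9 windows in all, and the p53-type pattern was in 1 of them. Among the windows not shown, GC boxes were in some of Cdkn2a, Cdkn2c and Cdkn2d, a CCAAT box in that of Cdkn2d and E2F patterns in those of Cdkn2a. These are matches of letters, and no binding was measured here.

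Of the 7 inhibitors, 6 had enough counts to be tested and Cdkn1c did not. In the edgeR quasi-likelihood test, 0 of the 6 were called higher and 0 lower in neurons at a Benjamini-Hochberg adjusted p-value under 0.05, beside 0% of all 12783 tested genes in each direction. At an unadjusted p-value under 0.05 the count was also 0 of 6 with edgeR, DESeq2 and limma, against 0.915% of tested genes higher and 2.51% lower with edgeR. With the replicate number as a block, 1 of the 6, Cdkn1a, had an unadjusted p-value under 0.05, in the lower direction, as did 3.48% of genes. The values below are therefore levels and differences with their spread, none of which passed the test. In bulk RNA, a change in the number of cells that express a gene and a change in RNA per cell cannot be told apart.

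Cdkn1b was the inhibitor with the most counts in every library. GENCODE places it at chr6:134920401-134925513 on the plus strand (ENSMUSG00000003031.14). Progenitor replicates 1 and 2 gave 268 and 150 counts of it, and the neuron replicates 404 and 428. In CPM with TMM factors, which set the typical gene equal between libraries, these were 22.02 and 20.3 CPM against 34.0 and 43.6 CPM. The progenitor libraries were close to each other, and both neuron libraries were above them. Progenitors averaged 21.2 ± 1.21 CPM and neurons 38.8 ± 6.82 CPM (mean ± SD of 2 cultures). The edgeR fit gave a log2 fold change of 0.87 with SE 0.44, a 1.83-fold difference with a 95% interval of 0.891 to 3.77 (unadjusted p = 0.088, adjusted p = 0.9998, edgeR quasi-likelihood test). Neurons had 1.54 times the level of progenitors in pair 1 (exact 95% counting interval 1.32 to 1.81) and 2.15 times in pair 2 (1.78 to 2.61). Counting error is thus smaller than the difference in each pair, and the spread between cultures that edgeR estimated from all genes sets the wider interval. A log2 fold change at least this high was found for 7.32% of tested genes. With library size alone as the scaling the groups overlapped, at 36.0 and 14.5 CPM in progenitors and 42.6 and 29.5 CPM in neurons, although the log2 fold change was still above 0, at 0.52. The summed glial markers, 165.4 and 120.3 CPM against 72.9 and 25.2 CPM, separated the groups as well, in the opposite direction, and their part in the difference of Cdkn1b was not tested.

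Cdkn1a, the inhibitor that p53 is best known for inducing, went the other way at a far lower level. It lies at chr17:29090976-29100727 on the plus strand (ENSMUSG00000023067.14), where 1 short model of the other strand, AC167363.2, overlaps it. Progenitors gave 27 and 31 counts and neurons 6 and 20, or 2.22 and 4.20 CPM against 0.505 and 2.04 CPM. Both neuron libraries were below both progenitor ones, but neuron replicate 2 and progenitor replicate 1 were nearly level. The means ± SD of 2 cultures were 3.21 ± 1.40 CPM and 1.27 ± 1.08 CPM. The fitted difference was -1.33 on the log2 scale (SE 0.82, 95% interval -3.24 to 0.58, unadjusted p = 0.145 and adjusted p = 0.9998, edgeR). With the replicate block the log2 fold change was -1.52 (unadjusted p = 0.047, adjusted p = 0.79, edgeR). The ratio was 0.228 in pair 1 (exact 95% counting interval 0.0768 to 0.562) and 0.486 in pair 2 (0.262 to 0.880). The neuron libraries differed from each other by 4.04-fold (1.56 to 12.3), more than the group means did. Cdkn1a was lower in both neuron libraries without the 18S row as well, and, unlike those of Cdkn1b, its groups also stayed apart with library size alone. Without neuron replicate 1 the log2 fold change was -0.68, and without neuron replicate 2 it was -2.63 (unadjusted p = 0.033, adjusted p = 0.99996, edgeR). Without progenitor replicate 2 it was -0.80. The glial markers were lower in neurons too, and their part in the difference of Cdkn1a was not tested.

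Cdkn1c, an imprinted gene whose protein holds many differentiating precursors out of the cycle, had 1 count in progenitor replicate 2 and 0 in the other 3 libraries. It lies at chr7:143458339-143461050 on the minus strand (ENSMUSG00000037664.13) and is overlapped by the antisense gene Gm44732. A count of 0 allows up to 3 counts, which is 0.246 CPM for the first progenitor library and 0.252 and 0.306 CPM for the neuron libraries. No fold change can be given at this depth. Its neighbour Kcnq1ot1, the long noncoding RNA from the same imprinted region, had 1692 and 130 counts in progenitors and 2245 and 651 in neurons. The spread of Kcnq1ot1 between the progenitor libraries, 139.0 and 17.6 CPM, was wider than its difference between groups. With the replicate block its unadjusted p-value was 0.0376 and its adjusted one 0.75 (edgeR). Phlda2 (11, 5, 2 and 2 counts in the order progenitor 1, progenitor 2, neuron 1, neuron 2) and Slc22a18 (0 counts in all 4) of that region were too low to test.

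**Figure D1:**
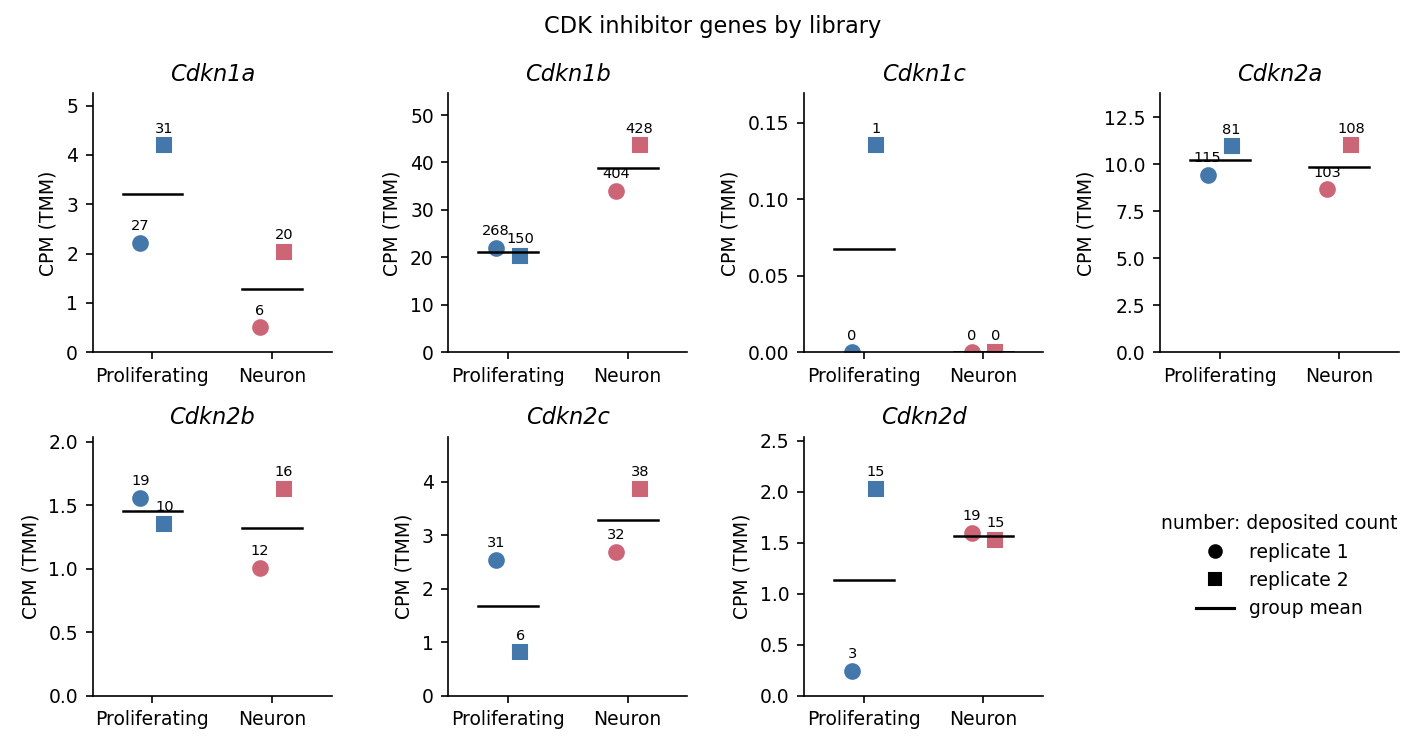
Level of each CDK inhibitor gene in CPM with TMM factors (vertical axes, each from 0) in the 2 proliferating and 2 neuron libraries; circles are replicate 1, squares replicate 2, lines group means and numbers the deposited counts. Cdkn1b lies at 20.3 to 22.02 CPM in progenitors and 34.0 to 43.6 CPM in neurons, while Cdkn2a stays between 8.66 and 11.0 CPM.

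Among the INK4 genes, Cdkn2a was the most abundant and the steadiest. It lies at chr4:89274471-89294653 on the minus strand (ENSMUSG00000044303.6). It had 115 and 81 counts in progenitors and 103 and 108 in neurons, which gave 9.45 and 10.96 CPM against 8.66 and 11.01 CPM. The groups overlapped, with means of 10.2 ± 1.07 and 9.84 ± 1.66 CPM (± SD of 2 cultures). Without the 18S row both neuron values were below both progenitor ones, but the replicate 2 libraries were level there. These were 33.1 and 31.207 CPM in progenitors and 26.7 and 31.200 CPM in neurons. The fitted log2 difference was -0.05 (SE 0.47), and the 95% interval of the fold, 0.449 to 2.07, leaves room for a change of about 2-fold either way (adjusted p = 0.9998, edgeR). The gene makes p16INK4a and p19ARF from different first exons and shared later ones, and a count per gene does not separate them. RefSeq places the starts at positions 89294619 and 89282192 of chromosome 4. Cdkn2b, which lies beside it at chr4:89306299-89311039 (ENSMUSG00000073802.5), was also without a direction, at 19 and 10 counts in progenitors and 12 and 16 in neurons. Its fitted log2 difference was -0.15 (SE 0.73), its ratio was 0.647 in pair 1 and 1.205 in pair 2, and both counting intervals include 1. These signs were not stable: without neuron replicate 1 the log2 fold change of Cdkn2a was 0.071 and that of Cdkn2b 0.12, and without progenitor replicate 2 that of Cdkn2a was 0.076. Mtap, the next gene of that cluster and an enzyme of methionine salvage, was lower in neurons, at 11.8 and 18.003 CPM against 9.67 and 8.67 CPM, without passing the test (log2 fold change -0.70, SE 0.49).

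Cdkn2c and Cdkn2d each turned on 1 library. Cdkn2c (ENSMUSG00000028551.14, chr4:109660876-109667189, minus strand) is one of the INK4 genes known from neural precursors. It had 31 and 6 counts in progenitors and 32 and 38 in neurons, or 2.55 and 0.812 CPM against 2.69 and 3.87 CPM. Progenitor replicate 2 was low and the other 3 libraries were alike. The ratio was 1.06 in pair 1 (exact 95% counting interval 0.624 to 1.79) and 4.77 in pair 2 (2.00 to 13.8). The log2 fold change of 0.92 (SE 0.71, adjusted p = 0.9998, edgeR) was 0.38 without progenitor replicate 2 and 1.96 without progenitor replicate 1 (unadjusted p = 0.046 and adjusted p = 0.26 in the latter, edgeR). Cdkn2d (ENSMUSG00000096472.2) lies at chr9:21288410-21291407 on the minus strand. It had 3 and 15 counts in progenitors and 19 and 15 in neurons, or 0.246 and 2.03 CPM against 1.60 and 1.53 CPM. Here progenitor replicate 1 was the low library, and the other 3 lay between 1.53 and 2.03 CPM. The ratio was 6.48 in pair 1 (1.91 to 34.2) and 0.753 in pair 2 (0.343 to 1.65). The fitted log2 difference of 0.52 (SE 1.01) turned to -0.41 without progenitor replicate 1, against 2.63 without progenitor replicate 2.

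**Figure D2:**
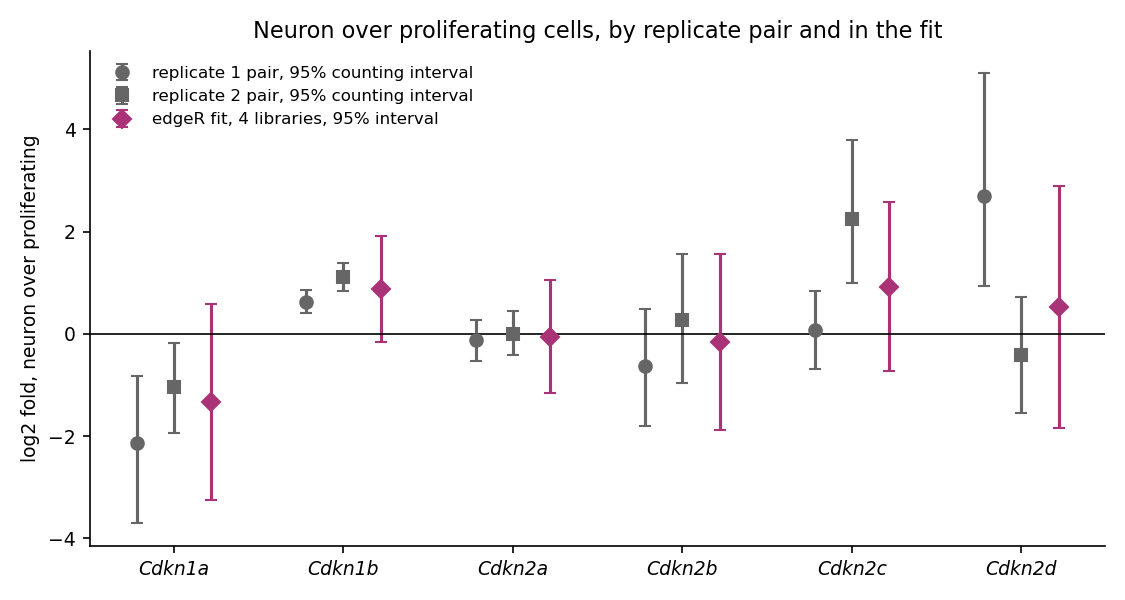
Neuron over proliferating fold on a log2 axis for the 6 tested inhibitors; grey circles and squares are the replicate 1 and replicate 2 pairs with exact 95% counting intervals, and diamonds are the edgeR fit over 4 libraries with its 95% interval. Each of the 6 edgeR intervals includes 0, and both pairs of Cdkn1b lie above 0 (1.54-fold and 2.15-fold) and both of Cdkn1a below it.

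By direction, 2 of the 6 tested inhibitors (Cdkn1b and Cdkn2c) were higher in both neuron libraries than in both progenitor ones, and 1 (Cdkn1a) was lower. Of all tested genes, 12.9% were separated in the higher direction and 14.5% in the lower. Likewise 2 of 6 were higher in both pairs, against 28.8% of genes, and 1 of 6 was lower in both, against 25.5%. The median log2 fold change of the 6 was 0.24, beside 0.024 over all tested genes, and lay at -0.02 in pair 1 and 0.12 in pair 2. With so few genes these shares do not separate the family from the rest of the table.

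Levels were compared between the genes per kilobase, with the summed exon length of each gene in GENCODE release M21. The authors' RPKM values could not be used for that alone, because the length behind them (recovered as count over RPKM) was 7712 bases for Cdkn1a and 23166 for Cdkn1c, where the exons cover 3553 and 2039 bases. In progenitors Cdkn2a came first at 8.71 ± 0.914 CPM per kilobase, followed by Cdkn1b at 4.65 ± 0.266 (SD, n = 2). Below them Cdkn2b (1.05 ± 0.106), Cdkn1a (0.903 ± 0.394), Cdkn2d (0.723 ± 0.801) and Cdkn2c (0.625 ± 0.457) did not differ from their neighbours in that order beyond their SD, and Cdkn1c was last at 0.0332. In neurons Cdkn1b (8.53 ± 1.499 CPM per kilobase) and Cdkn2a (8.39 ± 1.42) were level. Next came Cdkn2c (1.22 ± 0.311), Cdkn2d (0.993 ± 0.0310) and Cdkn2b (0.9498 ± 0.316), again within their SD of each other, and then Cdkn1a (0.358 ± 0.305), whose SD range just met that of Cdkn2b. In the authors' RPKM, with a length of 2405 bases for Cdkn1b against 4552 in GENCODE, Cdkn1b was above Cdkn2a in all 4 libraries: 14.96 and 6.01 against 8.68 and 4.39 RPKM in progenitors, and 17.7 and 12.3 against 6.11 and 4.19 RPKM in neurons. The place of these genes at the top therefore holds on both scales, while which of them leads in progenitors depends on the length used.

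Because the 18S share differed between replicates, the genes were also set against each other inside each library, where no library scaling enters. This comparison was chosen after the values were seen. The 7 genes together had 463 and 294 counts in progenitors and 576 and 625 in neurons. Cdkn1b made up 57.9% of them in the first progenitor culture (95% Wilson interval 53.3% to 62.3%) and 51.0% of them in the other (45.3% to 56.7%). In neurons its share was 70.1% in replicate 1 (66.3% to 73.7%) and 68.5% in replicate 2 (64.7% to 72.0%). The groups did not overlap, nor did the counting intervals of libraries from different groups. Cdkn2a made up 24.8% and 27.6% in progenitors and 17.9% and 17.3% in neurons, and Cdkn1a 5.83% and 10.5% against 1.04% and 3.20%. The shares of a library add up to the whole, so a larger share of Cdkn1b leaves less for the other genes. In CPM with TMM factors Cdkn2a overlapped, at 9.45 and 10.96 in progenitors and 8.66 and 11.01 in neurons. How often other genes separate the groups in such shares was not computed. Counts of Cdkn1a per count of Cdkn1b were 0.101 and 0.207 in progenitors and 0.0149 and 0.0467 in neurons. An exact two-sided permutation test of 2 libraries against 2 cannot give a p-value under 0.33, so these shares are descriptions. The intervals cover counting error only, since reads were not tagged per molecule.

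**Figure D3:**
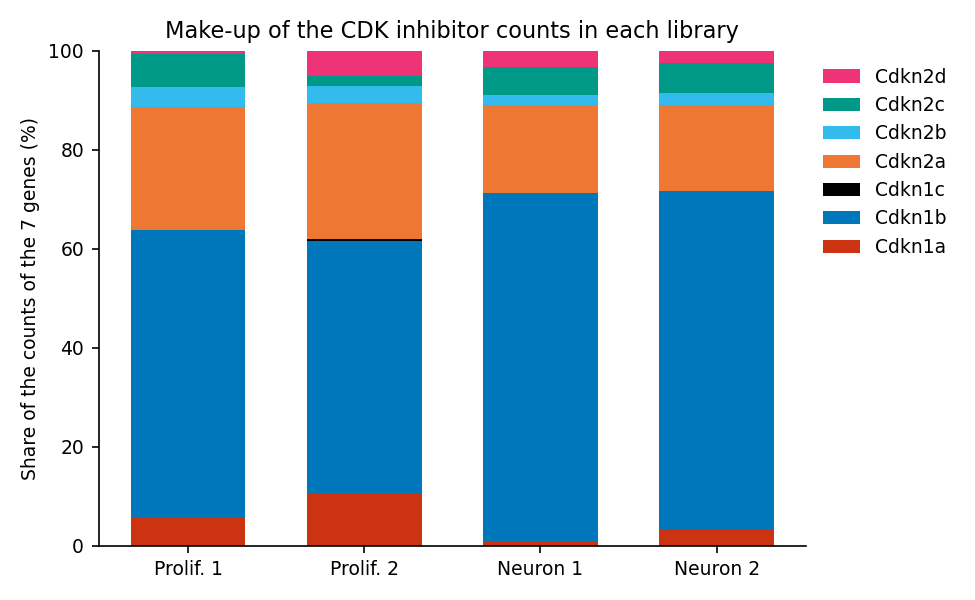
Share of each gene in the summed counts of the 7 CDK inhibitor genes (vertical axis, percent) in each library, without any scaling between libraries. Cdkn1b fills 51.0% and 57.9% of the proliferating bars and 68.5% and 70.1% of the neuron bars.

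The partners of these proteins were read from a list of 10 cyclin and kinase genes, all tested. None was called by edgeR after adjustment (0% of all genes). An unadjusted p-value under 0.05 was found for 2 of the 10, both lower in neurons, against 2.51% of all tested genes in that direction. Both are D-type cyclins, the growth factor sensors of G1. Ccnd2 had 232 and 253 counts in progenitors and 66 and 84 in neurons, or 19.1 and 34.2 CPM against 5.55 and 8.56 CPM, a log2 fold change of -1.92 with SE 0.54 (unadjusted p = 0.0086, adjusted p = 0.93, edgeR). Ccnd1 had 99 and 464 counts against 61 and 47. Its log2 difference of neuron minus progenitor was -0.65 in pair 1 and -3.66 in pair 2, so progenitor replicate 2 carries most of its difference. Cdk2, the kinase that K03861 is directed at, was level, at 7.81 and 8.66 CPM in progenitors and 8.75 and 8.26 CPM in neurons. Its log2 fold change (0.05, SE 0.46) was near 0 (adjusted p = 0.9998, edgeR). Cdk4 spanned 36.1 to 76.3 CPM in progenitors and 44.9 to 48.6 CPM in neurons, and the groups overlapped. The median log2 fold change of the list was -0.16, with 4 genes above 0 and 6 below.

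Set against the partners inside each library, Cdkn1b had more counts per count of 6 of the 10 genes in both neuron libraries than in both progenitor ones, and fewer for 0 of them. The 6 were Cdk2, Cdk4, all 3 D-type cyclin genes and Ccne1. Per count of Cdk2, Cdkn1b had 2.82 and 2.34 counts in progenitors and 3.88 and 5.28 in neurons. Per count of Ccnd2 the values were 1.16 and 0.593 against 6.12 and 5.10. Cdkn1a showed the reverse for 5 of 10 partners, with 0 in the other direction. For Cdkn2a, only the ratios to Ccnd1 and Ccnd2 separated the groups. All ratios of 1 gene share its counts and are not independent of each other. With TMM factors Cdkn1b was itself higher, and Ccnd1 and Ccnd2 were lower, in both neuron libraries. How often other genes separate the groups against these partners was not computed, so the numbers of partners stand without a background.

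Of the 11 retinoblastoma family and E2F genes, 0 were called and 0 had an unadjusted p-value under 0.05 in edgeR, with a median log2 fold change of 0.17. With TMM factors, 2 of them (E2f2 and E2f3) were higher in both neuron libraries than in both progenitor ones. In the lower direction 1 was separated, E2f6 (log2 fold change -0.52, SE 0.48). The shares over all tested genes were 12.9% and 14.5%. E2f2, an activating E2F factor, had 22 and 23 counts in progenitors and 64 and 52 in neurons, and its level of 1.81 and 3.11 CPM against 5.38 and 5.30 CPM did not overlap (log2 fold change 1.13, SE 0.55, adjusted p = 0.9998, edgeR). The retinoblastoma relative Rbl1 had 140 and 13 counts in progenitors and 117 and 76 in neurons, with progenitor replicate 2 alone at the low end. Of 12 genes of the ubiquitin ligases that act on CIP/KIP proteins, 0 were called and 0 passed unadjusted, with a median of 0.11. Skp2, which recruits p27 for degradation, was at 11.3 and 8.39 CPM in progenitors and 13.5 and 11.0 CPM in neurons (log2 fold change 0.31, SE 0.48). Its cofactor Cks1b differed by 1.02 in pair 1 and -0.96 in pair 2 on the log2 scale (neuron minus progenitor).

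Of 19 transcriptional regulators known to act on the inhibitor genes, 16 were tested, 0 were called and 0 had an unadjusted p-value under 0.05 (edgeR), with a median of 0.23. Trp53, the inducer of Cdkn1a, was at 19.0 and 31.8 CPM in progenitors and 26.9 and 30.6 CPM in neurons, so the groups overlapped. Mdm2, itself a p53 target that degrades p53, was at 11.4 and 9.48 CPM in progenitors and 16.2 and 14.2 CPM in neurons (log2 fold change 0.54, SE 0.47). Its log2 fold change was opposite in sign to that of Cdkn1a, and the activity of p53 was not tested. Myc, which with its partner MIZ1 is known to repress Cdkn1a and Cdkn2b, had 14011 and 7018 counts in progenitors and 4762 and 6623 in neurons. Its levels of 1151 and 950.0 CPM against 401 and 675 CPM did not overlap (log2 fold change -0.97, SE 0.42, unadjusted p = 0.0525, adjusted p = 0.9998, edgeR). Prox1, a homeodomain factor of otic neurons tied to cell cycle exit, was at 15.1 and 12.2 CPM in progenitors and 20.8 and 32.4 CPM in neurons (log2 fold change 0.96, SE 0.48). Hes1, a Notch effector known to repress Cdkn1b, was at 7.23 and 12.9 CPM against 5.30 and 0.816 CPM, and neuron replicate 2 held the low value. The Polycomb genes Bmi1 and Ezh2, known for silencing Cdkn2a, had log2 fold changes of 0.43 (SE 0.51) and 0.71 (SE 0.51). Among the other Polycomb genes of the list, Suz12 had 0.96 (SE 0.75) and Eed -0.03 (SE 0.51), both with overlapping groups. Cbx7 was too low to test. With TMM factors, 7 of the 16 were higher in both neuron libraries than in both progenitor ones, and 3 were lower. The shares over all tested genes were 12.9% and 14.5%, and the difference from them was not tested. The 7 were Mdm2, Prox1, Bmi1, Ezh2, Foxo4, Smad2 and Smad4, and with library size alone the groups of each overlapped. The 3 were Myc, Hes1 and Smad3, which stayed lower in both neuron libraries with library size alone. With the replicate block, 3 of the 16 regulators had an unadjusted p-value under 0.05, 1 higher and 2 lower, and 0 were called (edgeR). Of all 12783 tested genes, 345 were under 0.05 in the higher direction and 445 (3.48%) in the lower. In this edgeR fit Myc (adjusted p = 0.75) and Hes1 (adjusted p = 0.72) were lower in neurons, and the Polycomb gene Suz12 (adjusted p = 0.68) was higher.

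**Figure D4:**
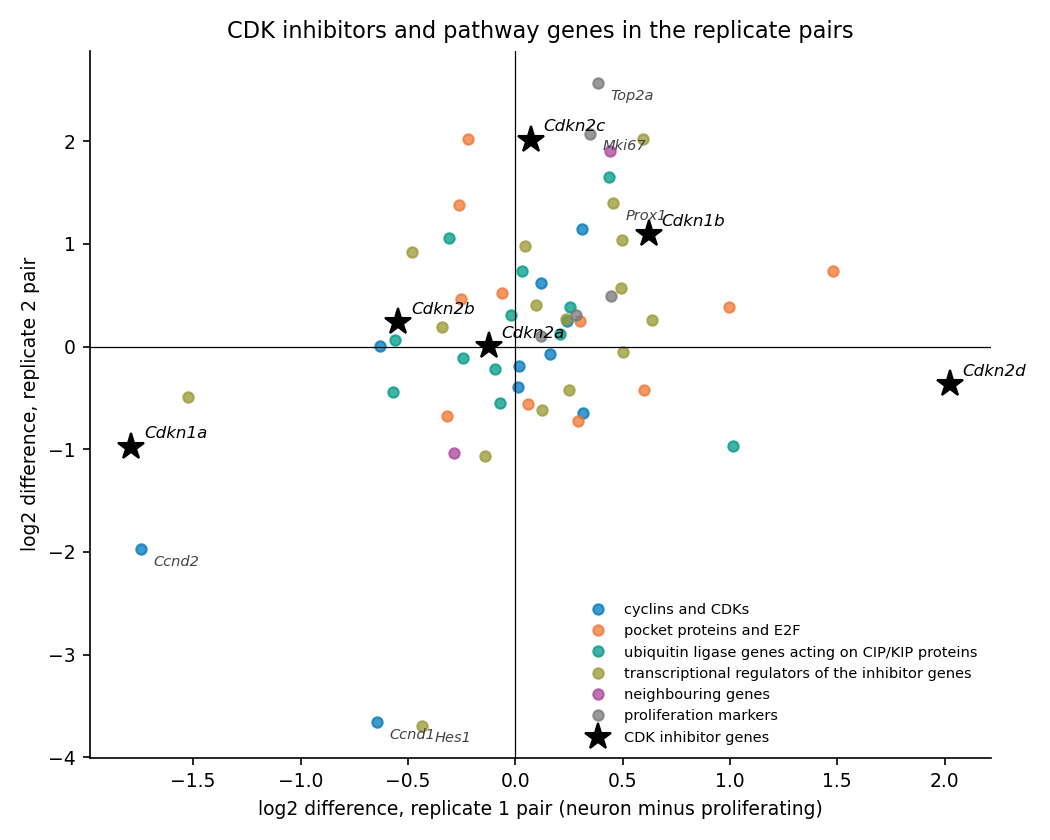
Log2 difference of neuron minus proliferating in pair 1 (horizontal) and in pair 2 (vertical) for the tested CDK inhibitor genes (stars) and the tested genes of the 6 pathway lists (dots). Cdkn1b is positive in both pairs, Cdkn1a negative in both, and Cdkn2d lies at 2.02 in pair 1 and -0.37 in pair 2.

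Transcripts of dividing cells stood beside these values. The 5 proliferation genes (Mki67, Top2a, Pcna, Mcm2 and Aurkb) all had a log2 fold change above 0, with a median of 0.47. All 5 were higher in neurons in both pairs with TMM factors, as were 28.8% of all tested genes. With library size alone, however, 3 of the 5 were lower in pair 1 (Mki67 at a ratio of 0.977, Pcna at 0.939 and Mcm2 at 0.835), and without the 18S row 1 of the 5 was. Of the 5, 0 were called, and 0 had groups that did not overlap. With the replicate block, Mki67 (unadjusted p = 0.0437, adjusted p = 0.78) and Top2a (unadjusted p = 0.0275, adjusted p = 0.69, edgeR) were under 0.05 before adjustment. In the higher direction, 345 of all 12783 tested genes were under it too. Top2a was at 167 and 21.9 CPM in progenitors and 219 and 131 CPM in neurons, with progenitor replicate 2 alone at the low end. Mki67 was at 93.1 and 11.0 CPM in progenitors and 118 and 46.8 CPM in neurons, so the spread between the progenitor libraries exceeded the difference between groups. Counts of Cdkn1b per count of Mki67 were 0.237 and 1.85 in progenitors and 0.287 and 0.932 in neurons, and overlapped. With TMM factors, then, Cdkn1b and these 5 transcripts were all higher in neurons in both pairs.

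The genes with the pattern most like that of Cdkn1b and Cdkn2a, the inhibitors with a mean count of at least 50, were taken from 7293 tested genes by the root mean square difference of centred log2 CPM over the 4 libraries. For Cdkn1b they were Prpsap2 (0.0495), En2 (0.0689) and Cox6c (0.0774). For Cdkn2a they were Bri3bp (0.0140), Ep400 (0.0168) and Gm22786 (0.0185). With 4 libraries many genes come close: 82 genes lay within 0.2 of Cdkn1b and 1047 within 0.2 of the flat profile of Cdkn2a.

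**Figure D5:**
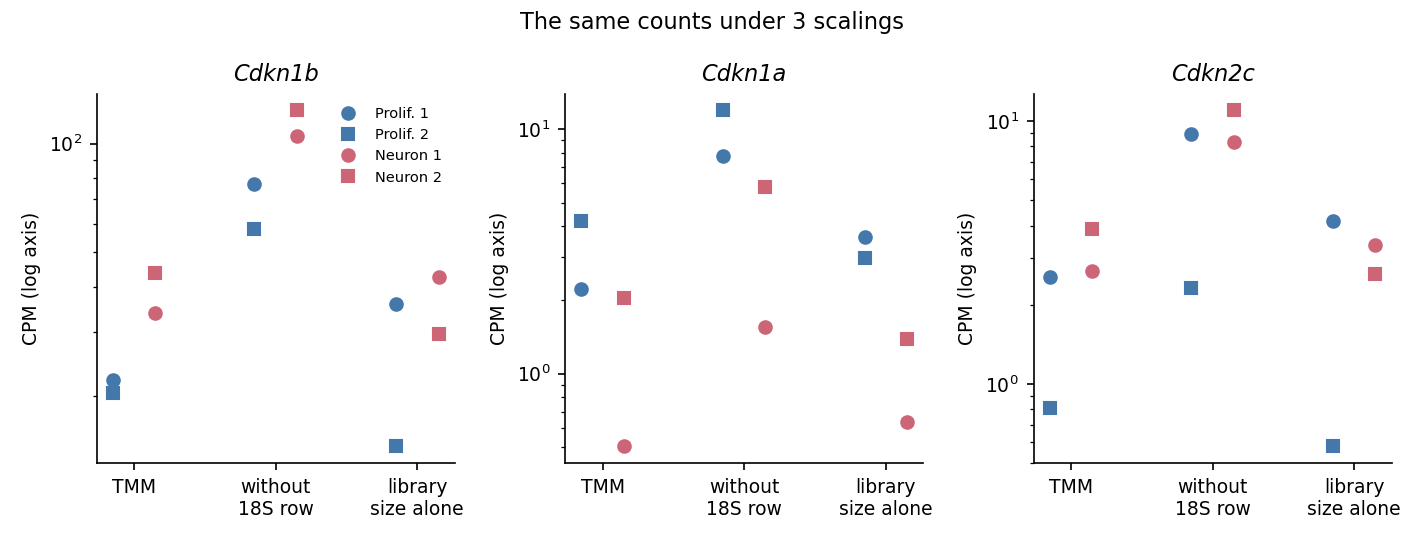
Levels of Cdkn1b, Cdkn1a and Cdkn2c in CPM on log axes under TMM factors, without the 18S row and with library size alone; blue is proliferating, red neuron, circles replicate 1 and squares replicate 2. Cdkn1a is lower in both neuron libraries under all 3 scalings, Cdkn1b is higher in both under the first 2 and overlaps with library size alone, and Cdkn2c is separated with TMM factors but overlaps under the other 2.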

How the data were processed

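Per the labels' protocols, total RNA from 4 cultures was depleted of ribosomal RNA and sequenced as stranded libraries. Raw counts by gene symbol were deposited, beside RPKM values the authors derived from them. The submitters' processing notes name mm10, HISAT2, SAMtools, featureCounts, DESeq2 and deepTools 3.4.3. The strand setting and annotation used for counting are not given in the sources used here, so antisense overlaps (1 at Cdkn1a, 1 at Cdkn1c in GENCODE M21) could enter the counts.

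Counts were tested with edgeR 4.0.16 in R 4.3.3: TMM factors, filterByExpr (minimum count 10, minimum total 15), glmQLFit and glmQLFTest with group alone, two-sided, Benjamini-Hochberg over 12783 genes. Intervals of fold changes use the t distribution with 7.38 degrees of freedom, prior included. CPM uses the TMM-adjusted library size, 18S row included. Pair differences on the log2 scale use a prior count of 2, whereas pair ratios use none. DESeq2 1.42.0 (on the whole table), limma 3.58.1 on the authors' RPKM values as log2(RPKM + 1) and log2(RPKM + 0.1), other scalings, no filter, a replicate block and leaving out each library were alternatives. The code was tested on simulated data.

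The titles of both replicate 2 libraries carry a shared set label, so the numbers were taken to pair the libraries. Deviations of same-numbered libraries correlated at r = 0.33. The labels call the replicates biological. No more is said of their origin, and p-values measure the spread between these cultures.

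The members, gene lists and rule for named genes (the 7 genes, the pathway lists, and the 3 nearest profiles per member with a mean count of at least 50) were chosen with earlier results of these data known. Skp1a was matched to the current symbol Skp1. RefSeq promoter windows were used without their transcribed part. All 37 mitochondrial genes are listed at 0 counts. Python 3.11.15 was used for the rest.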

Additional observations from a re-analysis of the deposited data

How the results depend on the processing

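None of the CDK inhibitor genes was called in either direction under any of the 12 alternatives, and adjusted p-values of the tested ones lay between 0.256 and 1.0. The fitted log2 fold changes of Cdkn1b and Cdkn2c were above 0, and that of Cdkn1a below 0, under all 12. With library size alone they were 0.52 (SE 0.99) for Cdkn1b and 0.35 (SE 1.07) for Cdkn2c. The groups of both genes overlapped there and in the authors' RPKM. Leaving out each library in turn moved the log2 fold change of Cdkn1a from -2.63 to -0.68, of Cdkn1b from 0.68 to 1.01 and of Cdkn2c from 0.38 to 1.96. It turned the sign of Cdkn2a (-0.24 to 0.076; 0.076 without progenitor replicate 2 and 0.071 without neuron replicate 1), of Cdkn2b (-0.53 to 0.12) and of Cdkn2d (-0.41 to 2.63), and the cause was not tested. Pairing by replicate block gave log2 fold changes of -1.52 for Cdkn1a, 0.86 for Cdkn1b and 1.04 for Cdkn2c, and called 0 genes higher and 3 lower.

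Over all genes, 0 were called higher and 0 lower in the edgeR test (117 and 321 at an unadjusted p-value under 0.05). Without a gene filter, which tests 25859 genes, 41 were called higher and 122 lower. DESeq2 called 11 higher and 43 lower. Library size alone called 2 lower, log2(RPKM + 1) 1 and log2(RPKM + 0.1) 2. With 1 library left out, 3 to 29 were called higher and 11 to 84 lower, the lone remaining library being assumed to vary like the other group. The cause was not tested.

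Library size alone moved the median of all tested genes by -0.29. Under it the list medians were -0.34 for cyclins and CDKs, -0.19 for retinoblastoma family and E2F genes, -0.25 for ubiquitin ligase genes, -0.050 for regulators, -0.30 for neighbouring genes and 0.16 for proliferation genes. Leaving out 1 library gave medians of -0.22 to -0.02, 0.017 to 0.65, -0.076 to 0.016, 0.17 to 0.31, -0.54 to 0.92 and 0.10 to 0.82 in the same order. Cdkn1a, Cdkn2b, Cdkn2c and Cdkn2d had 3 to 38 counts per library, so the counting interval of a single pair spans several fold.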
